A study of Homo sapiens with 3 samples.

Results

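The genes described here are 8 members of the SLC16 family of membrane transporters, SLC16A1, SLC16A3, SLC16A5, SLC16A6, SLC16A7, SLC16A9, SLC16A10 and SLC16A13, together with BSG, which codes for basigin, a chaperone of some of them. They were picked by symbol, 9 of 26334 genes in each table, with measured values of these libraries in view, so their levels and ratios are a description and no test supports the choice. All 3 libraries came from K562, an established leukaemia cell line of erythroid character grown in medium with 10% fetal bovine serum. Cells of every group had been infected with a pMYs-IG retrovirus made in GP2-293 packaging cells. Cells positive for GFP were sorted 3 days later and then grown further, and the labels call the expression stable. The vector was empty in the control group, held EVI1-WT with a 3xHA tag in the second group, and held EVI1+18 with the same tag in the other. EVI1 is a zinc finger transcription factor of the MECOM gene, and EVI1+18 is a form with a short insertion from altered splicing. The labels give retroviral overexpression for all 3 groups, and the empty vector library also held MECOM counts. Each group has 1 library, so no spread between cultures was measured, no ratio has a replicate check and no p-value is given.

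SLC16 proteins cross the membrane many times and move small organic acids and related molecules. The classic monocarboxylate transporters, named MCT, carry lactate, pyruvate and ketone bodies together with a proton, and so link glycolysis to the pH of the cell. They reach the cell surface only with a partner of the immunoglobulin superfamily, usually basigin, which is also a blood group antigen of red cells. Other members of the family carry aromatic amino acids, carnitine or creatine, and for some the cargo is not settled, so the family name covers more than monocarboxylates.

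The sequence upstream of a start site was at hand for 5 of the 9 members (12 windows of 250 bases, RefSeq, GRCh38.p14), and 3 windows are shown because they belong to the 2 members with the largest ratios on more than 10 counts, SLC16A9 and SLC16A3, and to BSG, which stayed within 2-fold. Each was chosen after it was seen to hold ACGTG, the core of the site bound by hypoxia-inducible factors. Capitals mark this motif on either strand, and each run ends before the first exon base annotated inside its window. BSG and SLC16A3 have another start upstream of the window shown.
SLC16A9, chr10:59710080-59710329, minus strand: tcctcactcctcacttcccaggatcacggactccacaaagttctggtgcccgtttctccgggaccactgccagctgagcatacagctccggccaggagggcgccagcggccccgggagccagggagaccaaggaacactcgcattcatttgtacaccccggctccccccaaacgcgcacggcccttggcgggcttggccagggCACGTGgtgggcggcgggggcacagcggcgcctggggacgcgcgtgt
SLC16A3, chr17:82228792-82229031, plus strand: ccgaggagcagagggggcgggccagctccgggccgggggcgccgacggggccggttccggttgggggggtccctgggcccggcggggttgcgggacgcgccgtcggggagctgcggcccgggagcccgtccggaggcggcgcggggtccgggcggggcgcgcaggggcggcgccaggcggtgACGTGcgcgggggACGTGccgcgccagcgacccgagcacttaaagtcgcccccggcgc
BSG, chr19:572346-572564, plus strand: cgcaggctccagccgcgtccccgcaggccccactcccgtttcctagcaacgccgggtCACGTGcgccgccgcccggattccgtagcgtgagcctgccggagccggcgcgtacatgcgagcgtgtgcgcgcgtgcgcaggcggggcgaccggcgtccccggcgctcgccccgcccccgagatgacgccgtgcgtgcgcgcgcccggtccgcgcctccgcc
The SLC16A9 window held the motif as part of the E-box CACGTG, which contains it on both strands, 47 bases before the start. The SLC16A3 window held 2 separate copies, 68 and 55 bases before the start, and the BSG window held 1 E-box 193 bases before it. Of the 12 windows 4 held the motif, the fourth being that of SLC16A10, against 18.5% of 35116 RefSeq windows of the same length. The E-box was in 2 of the 12 and in 6.34% of all windows. The windows of SLC16A9 and SLC16A3 at their other starts held no copy. GATAAG, bound by the main erythroid zinc finger factors, was in 0 of the 12 and in 5.65% of all windows. The motif GACAAGATA, described for the first zinc finger domain of EVI1, was in 0 of the 12 and in 0.0854% of all windows. The motif GAAGATGAG, described for its other zinc finger domain, was in 0 of the 12 and in 0.265% of all windows. These matches, searched on both strands, describe letters in these windows only.

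The libraries held 17794423 (empty vector), 18439311 (EVI1-WT) and 20772348 (EVI1+18) counts. MECOM had 793, 1039 and 2012 counts in that order, with ratios to empty vector of 1.30 (1.18 to 1.42) and 2.21 (2.04 to 2.41). The library labelled EVI1-WT was thus within 2-fold of empty vector for the gene it was to overexpress; the cell's own transcript and the vector's cannot be told apart. The erythroid markers that define K562 were high in every library, with summed TPM of 9 genes between 52029 and 68878 and lowest with empty vector; 8 of the 9 had a ratio above 1 in each EVI1 library. Markers of other cells were low: 6 myeloid genes summed to between 44.7 and 77.4 TPM, 5 lymphoid genes to between 4.21 and 11.96 TPM, and 5 stromal genes to between 0.26 and 1.96 TPM. The lymphoid and stromal sums were highest with empty vector, where PTPRC (11.2 TPM) and COL1A2 (1.66 TPM) carried most of them. COL1A2 had 93, 2 and 20 counts (empty vector, EVI1-WT, EVI1+18), too few for a call. CSF1R, MS4A1 and THY1 of these lists were at 0 counts in all 3 libraries, while SPI1 was 2.40-fold higher with EVI1+18 and PTPRC was lower in both EVI1 libraries, at ratios of 0.376 and 0.461. Of 6 markers of packaging cells NEFM, CDH2 and PAX2 were at 0 in all 3, while CALB1 and GAL carried nearly the whole sum of 155 to 212 TPM. The part of these markers in the results below was not tested, and in bulk RNA fewer cells with a transcript and less of it per cell cannot be told apart.

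SLC16A1 and BSG made up nearly all of this transporter system in K562, as the plot of TPM by library shows. TPM, a level per transcript length within a library, is corrected for length and allows genes to be compared with each other. BSG stood at 448 TPM with empty vector, 442 with EVI1-WT and 488 with EVI1+18. SLC16A1, which codes for MCT1, the widespread carrier of lactate and pyruvate, stood at 143, 161 and 144 TPM in the same order. SLC16A1 supplied 94.9%, 92.0% and 92.0% of the summed TPM of the 14 SLC16 genes in the tables. The other members were all below 10 TPM in every library.

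With empty vector the order below SLC16A1 was SLC16A13 at 4.03 TPM, SLC16A9 at 1.97, SLC16A3 at 0.86, SLC16A5 at 0.44, SLC16A10 at 0.14 and SLC16A6 at 0.08, with SLC16A7 listed at 0. SLC16A9 took the place next to SLC16A1 in both EVI1 libraries, at 9.44 TPM with EVI1-WT and 5.36 with EVI1+18. SLC16A3 and SLC16A13 were next to each other with EVI1-WT, at 1.99 and 1.91 TPM. With EVI1+18 the order was SLC16A13 at 3.42 and SLC16A3 at 2.69 TPM, levels that rest on 68 and 64 counts. The 13 SLC16 genes other than SLC16A1 summed to 7.62 TPM with empty vector, 14.1 with EVI1-WT and 12.5 with EVI1+18.

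**Figure D1:**
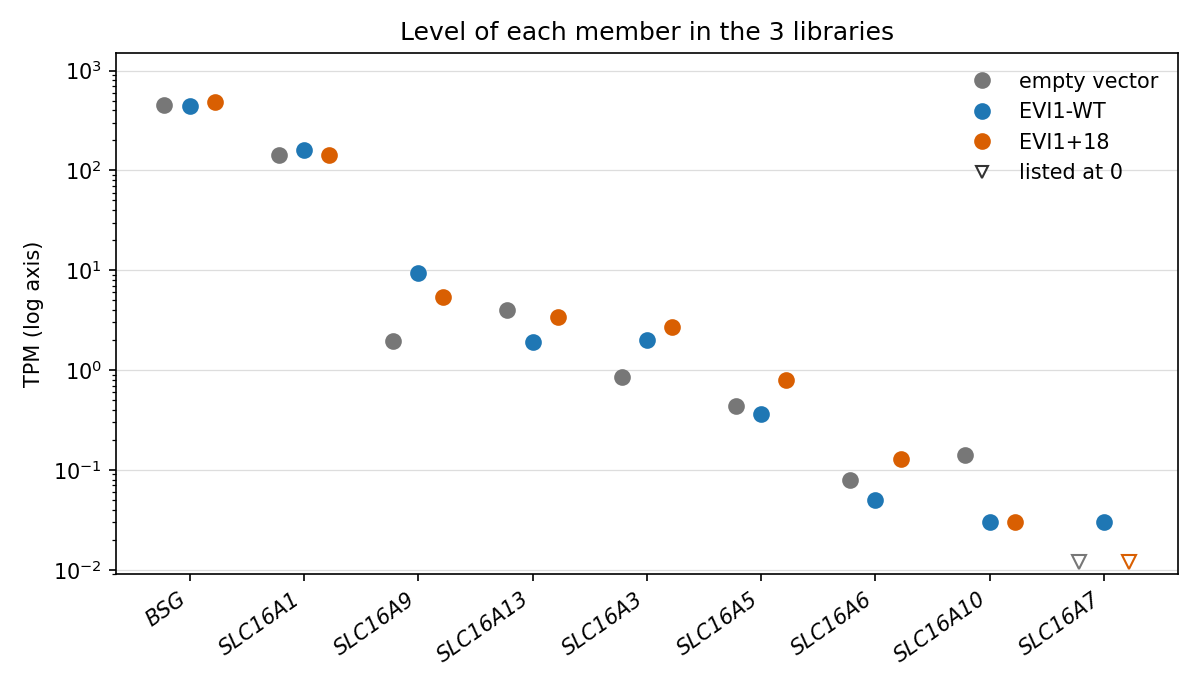
TPM on a log axis for the 9 members, 1 point per library; open triangles mark SLC16A7, listed at 0 in the empty vector and EVI1+18 libraries. BSG (442 to 488 TPM) and SLC16A1 (143 to 161 TPM) stand far above the other members, and SLC16A9 has its lowest point, 1.97 TPM, with empty vector.

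Of the 9 members 4 had a mean of at least 50 counts and could be called, SLC16A1, SLC16A9, SLC16A13 and BSG. SLC16A3, at a mean of 41 counts, SLC16A5, SLC16A6, SLC16A7 and SLC16A10 fell below that minimum, and their ratios are given with no call. The expected counts of all 9 were whole numbers within 0.001 in every library. A gene counted as higher or lower at a ratio of scaled counts of at least 2-fold. With EVI1-WT against empty vector, 1 of the 4 was higher and 0 lower, where 2.40% of 10406 genes were past 2-fold, 0.702% higher and 1.70% lower. With EVI1+18 against empty vector, 1 of the 4 was higher and 0 lower, beside 1.85% of those genes, 1.01% higher and 0.836% lower. With EVI1+18 against EVI1-WT, 0 of the 4 were past 2-fold, beside 1.16%, of which 0.951% were higher and 0.211% lower. The called member was SLC16A9 both times, and the median log2 ratio of the 4 was 0.16, 0.17 and 0.01 in the 3 comparisons. The first and second comparison share the empty vector library, so a deviation of that library would enter both. The choice of the genes used these contrasts, and nothing is read from the shares.

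Wider rules add members with few counts. With a minimum mean of 10 counts SLC16A3 joined SLC16A9, so that 2 of 6 members were higher in each EVI1 library than with empty vector, beside 1.76% and 2.47% of 11943 genes. Between the EVI1 libraries SLC16A5 alone was higher under that minimum, 1 of 6 beside 3.01%, but it reached the minimum only through its EVI1+18 count, so that the call is tied to the filter. In either direction 5.79%, 4.83% and 3.81% of genes passed 2-fold under that minimum in the 3 comparisons. With no minimum 3, 3 and 2 members were past 2-fold in the 3 comparisons, beside 10.1%, 9.53% and 7.80% of all genes with a ratio. At 1.5-fold and a mean of at least 50 counts 2 of 4, 1 of 4 and 2 of 4 members passed, beside 6.32%, 5.53% and 4.42% of genes.

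**Figure D2:**
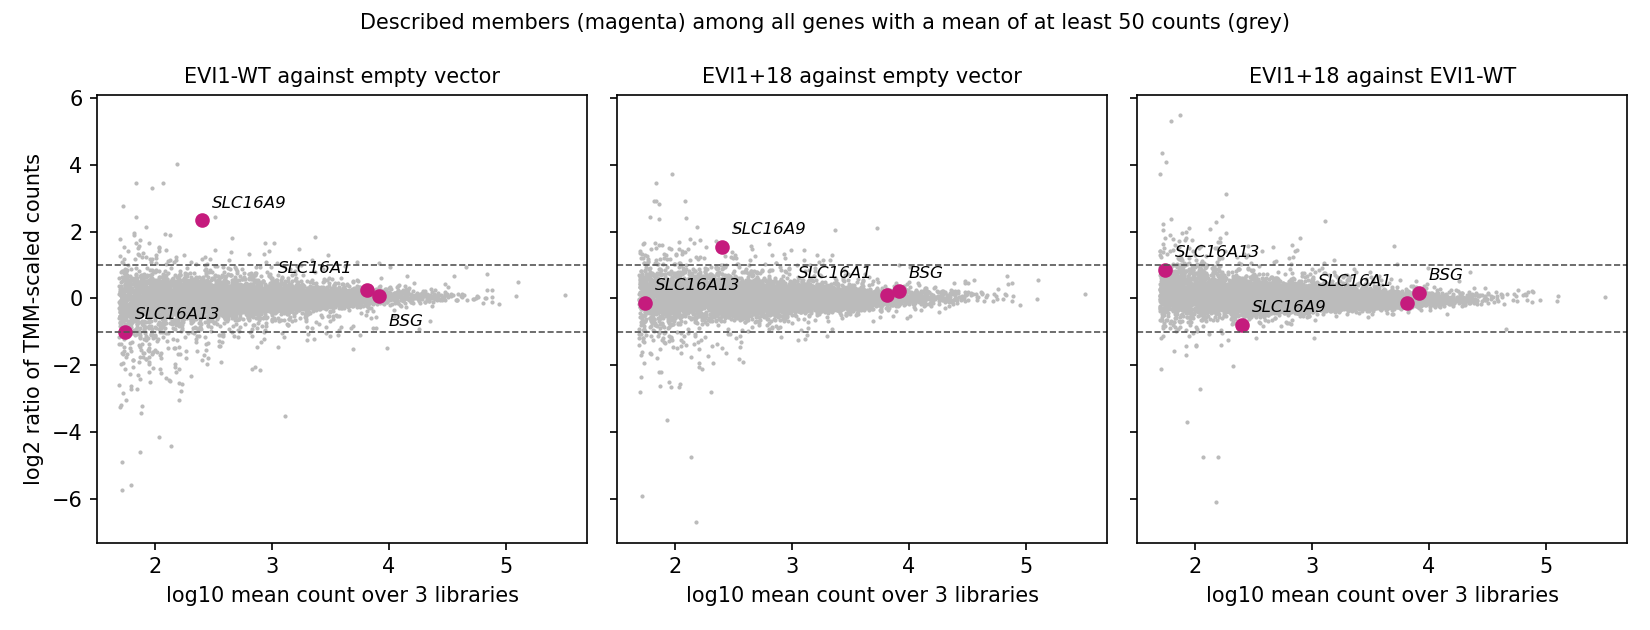
Log2 ratio of TMM-scaled counts against the log10 mean count, for 10406 genes (grey) and the 4 described members (magenta), 1 panel per comparison; dashed lines mark 2-fold. SLC16A9 lies above the upper line in the first and second panel (5.05-fold and 2.92-fold), and SLC16A1 and BSG lie within 2-fold in all 3.

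SLC16A9 codes for MCT9, a family member tied to carnitine transport rather than lactate. It had 80 counts with empty vector, 409 with EVI1-WT and 268 with EVI1+18. It was lowest with empty vector and highest with EVI1-WT. The EVI1-WT library exceeded empty vector 5.05-fold (exact 95% counting interval 3.97 to 6.51) and the EVI1+18 library exceeded it 2.92-fold (2.27 to 3.80). That put it 8th from the top of 10406 genes in the first comparison and 27th in the second. Between the EVI1 libraries the ratio was 0.578 (0.494 to 0.676), within 2-fold and 41st from the bottom. Its share of the summed SLC16 TPM was 1.31% with empty vector, 5.38% with EVI1-WT and 3.43% with EVI1+18. No other gene of the GENCODE annotation overlaps SLC16A9.

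The 3 genes nearest to SLC16A9 in their pair of log2 ratios to empty vector, among 10129 compared over these 3 libraries, were FAM133DP, EMILIN2 and IGSF10. FAM133DP, a pseudogene whose reads may be split with its near-identical relatives and is therefore uncertain, lay 0.43 log2 units away. It had 14, 96 and 50 counts (empty vector, EVI1-WT, EVI1+18). It reached the minimum mean of 50 counts only through its EVI1-WT count, so its place here is tied to that filter. EMILIN2, a glycoprotein of the extracellular matrix, lay 0.48 away with 47, 178 and 183 counts. Its empty vector count also lay under 50, so it too passed the minimum through its EVI1 counts and is tied to that filter. IGSF10, of the immunoglobulin superfamily, lay 0.54 away with 178, 629 and 568 counts. Between the EVI1 libraries EMILIN2 and IGSF10, at ratios of 0.907 and 0.797, were nearer to equal than SLC16A9.

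Among the proton-linked carriers SLC16A1 stayed within 2-fold in all 3 comparisons. Its 5688, 6848 and 7040 counts (empty vector, EVI1-WT, EVI1+18) gave a ratio of 1.19 with EVI1-WT (1.15 to 1.23) and 1.08 with EVI1+18 (1.04 to 1.12) against empty vector, and 0.907 between the EVI1 libraries (0.878 to 0.938). These intervals leave out 1, but so did those of 44.9%, 47.7% and 48.5% of all described genes in the respective comparisons. In the first comparison 25.5% of described genes lay further from a ratio of 1 than SLC16A1 did, in the second 58.8% and in the third 51.1%. SLC16A1-AS1, which overlaps SLC16A1 on the opposite strand, had 45, 53 and 48 counts, and without strand the reads of such a pair cannot be told apart.

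SLC16A3 codes for MCT4, the carrier that exports lactate from strongly glycolytic cells and a known target of hypoxia-inducible factors. It had 17 counts with empty vector, 42 with EVI1-WT and 64 with EVI1+18, so it was lowest with empty vector and, unlike SLC16A9, had its highest count with EVI1+18. Against empty vector the ratio was 2.44 with EVI1-WT (1.36 to 4.58) and 3.28 with EVI1+18 (1.90 to 5.98), on too few counts for a call. With a pseudocount of 1 on TPM these ratios were 1.61 and 1.98, both under 2-fold. Between the EVI1 libraries the ratio was 1.34 (0.897 to 2.03), an interval that holds 1. In TPM, SLC16A1 exceeded SLC16A3 by a factor of 166 with empty vector, 81.0 with EVI1-WT and 53.4 with EVI1+18. SLC16A3 overlaps CSNK1D, a kinase gene on the opposite strand, which had 2854, 3025 and 3608 counts and ratios to empty vector of 1.05 (0.995 to 1.10) and 1.10 (1.05 to 1.16). On its own strand it overlaps AC132872.3, AC132872.4 and MIR6787, which strand would not separate. Since strand use is also not known, the count of SLC16A3 is uncertain.

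SLC16A7, which codes for MCT2, a high-affinity pyruvate and lactate carrier, was at the limit of detection. It had 0 counts with empty vector, 4 with EVI1-WT and 0 with EVI1+18. The floor of 3 counts corresponds to 0.166 CPM (the scaled count as a rate in the library) with empty vector and 0.145 CPM with EVI1+18, so differences were not detectable at this depth. SLC16A8, for the MCT3 carrier of the retina, had 0 counts in all 3 libraries.

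BSG, the chaperone of MCT1 and MCT4, stayed within 2-fold. It had 7189 counts with empty vector, 7590 with EVI1-WT and 9659 with EVI1+18. Against empty vector the ratio was 1.04 with EVI1-WT (1.01 to 1.08) and 1.17 with EVI1+18 (1.14 to 1.21). In TPM these become 0.988 and 1.09, both below their intervals. Between the EVI1 libraries the ratio of scaled counts was 1.12 (1.09 to 1.16). In the first comparison 74.3% of described genes lay further from a ratio of 1. BSG TPM exceeded the summed SLC16 TPM by a factor of 2.97 with empty vector, 2.52 with EVI1-WT and 3.12 with EVI1+18. The other chaperones of the list were EMB, for embigin, the partner of MCT2, with 0, 1 and 2 counts, and NPTN, for neuroplastin, with 317, 309 and 428 counts and ratios to empty vector of 0.964 (0.821 to 1.13) and 1.18 (1.02 to 1.37).

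SLC16A13 codes for MCT13, a lesser known member for which lactate transport has been described. It had 65 counts with empty vector, 33 with EVI1-WT and 68 with EVI1+18, so the EVI1-WT library stood alone on the low side. The ratio with EVI1-WT against empty vector was 0.502 (0.320 to 0.774), just inside 2-fold and 180th from the lowest of 10406 genes. It passes 2-fold with library totals, upper quartile factors, TPM without a pseudocount or FPKM in place of TMM-scaled counts. It stays inside 2-fold with DESeq2 size factors, at 0.502, and with a pseudocount of 1 on TPM, at 0.579. Its ratio of EVI1+18 to empty vector was 0.913 (0.640 to 1.30), and between the EVI1 libraries it was 1.82 (1.18 to 2.85).

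The remaining members had few counts. SLC16A5, for MCT6, known from drug transport, had 8, 7 and 18 counts (empty vector, EVI1-WT, EVI1+18), and its ratio between the EVI1 libraries was 2.27 with an interval of 0.904 to 6.43, and 1.32 with a pseudocount of 1 on TPM. SLC16A6, for MCT7, tied to ketone body export from liver cells, had 3, 2 and 6 counts, and it overlaps ARSG on the opposite strand, which had 22, 12 and 21. SLC16A10, for the aromatic amino acid carrier TAT1, had 4, 1 and 1 counts, and its ratio with EVI1-WT to empty vector, 0.247, had an interval of 0.00502 to 2.50. The intervals of all ratios that could be formed for SLC16A5, SLC16A6 and SLC16A10 hold 1. Among SLC16 genes that are not members, SLC16A4, an orphan carrier, had 2, 7 and 2 counts. SLC16A8, SLC16A11, SLC16A12, for a creatine carrier, and SLC16A14 were at 0 counts in all 3 libraries.

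**Figure D3:**
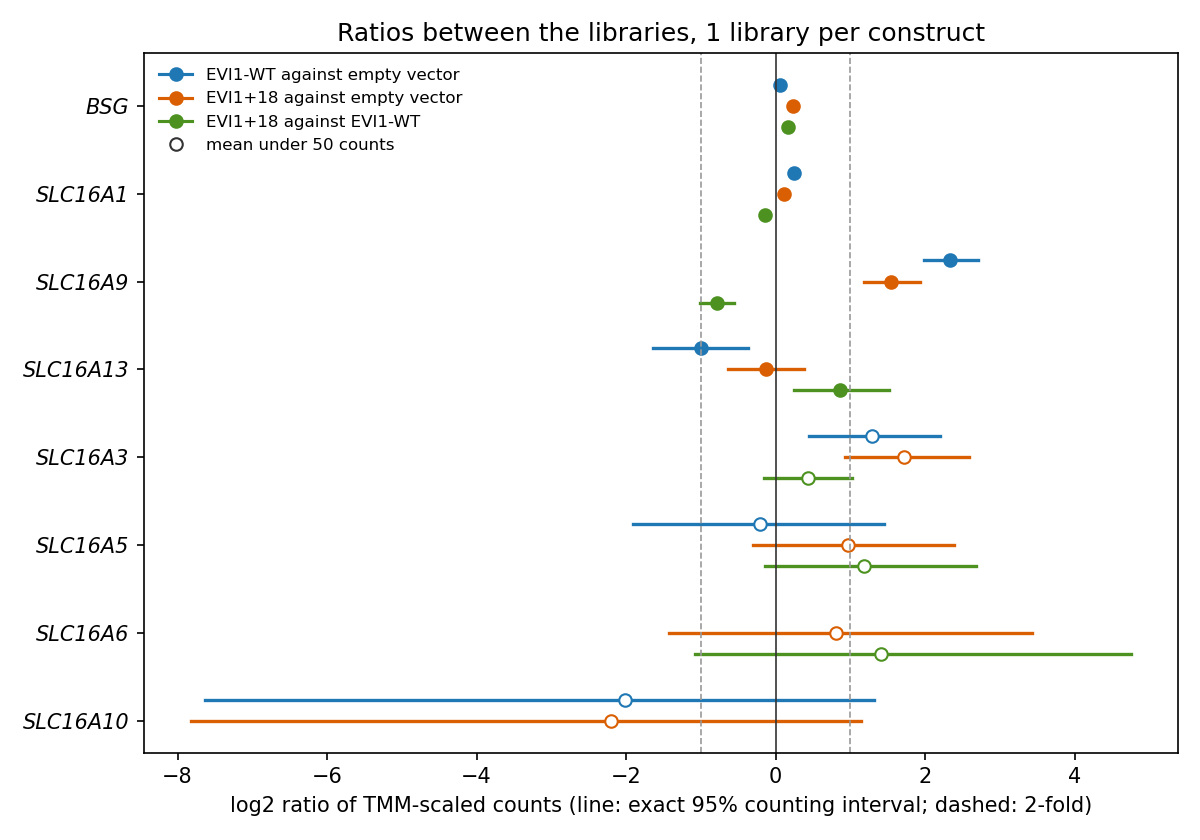
Log2 ratio of TMM-scaled counts for 8 members in the 3 comparisons, with the exact 95% counting interval as a line; open points have a mean under 50 counts, dashed lines mark 2-fold, and SLC16A7 and pairs of counts at or under 3 are left out. The intervals of SLC16A9 lie above a ratio of 1 against empty vector (3.97 to 6.51 and 2.27 to 3.80), those of BSG and SLC16A1 are hidden by their points, and those of SLC16A10 span more than the 2-fold range.

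Genes around these transporters were taken from lists of lactate and pyruvate use, ketone bodies, glucose entry, proton export, carnitine and creatine, aromatic amino acids, thyroid hormone and named regulators. They hold 108 genes other than the members, of which 65 had a mean of at least 50 counts and 24 were at 0 in all 3 libraries. With EVI1-WT against empty vector 1 of the 65 was higher and 0 lower, with EVI1+18 2 were higher and 0 lower, and between the EVI1 libraries 0 passed 2-fold. The median log2 ratios were -0.02, -0.03 and 0.03 in the 3 comparisons, beside 0.01, -0.00042 and -0.0062 over all described genes. The 1 and 2 of 65 stand beside 2.40% and 1.85% of all described genes.

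The lactate dehydrogenases make and use the main cargo of the family. LDHA, the form that favours lactate, stood at 1167, 1394 and 1500 TPM (empty vector, EVI1-WT, EVI1+18), and LDHB at 1642, 1632 and 1527 TPM. The ratio of LDHA counts to empty vector was 1.26 with EVI1-WT (1.24 to 1.28) and 1.38 with EVI1+18 (1.36 to 1.40), and that of LDHB 1.05 (1.03 to 1.07) and 0.999 (0.980 to 1.02). LDHC, LDHAL6A, LDHAL6B and the lactate receptor HCAR1 were at 0 in all 3 libraries, as were the sodium-coupled monocarboxylate carriers SLC5A8 and SLC5A12.

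PDK1, a kinase that turns off pyruvate dehydrogenase, had 429, 741 and 1033 counts, lowest with empty vector. It was 2.10-fold higher with EVI1+18 (1.88 to 2.36), with a ratio of 1.71 with EVI1-WT (1.51 to 1.93). It was the 1 gene past 2-fold of 11 described in the pyruvate list, whose medians were -0.04 with EVI1-WT and -0.21 with EVI1+18. The related kinases PDK2 and PDK3 were highest with empty vector, on too few counts for a call. PDK2 had 15, 2 and 4 counts and ratios to empty vector of 0.132 (0.0146 to 0.567) and 0.233 (0.0562 to 0.730). PDK3 had 30, 8 and 21 counts and ratios of 0.264 (0.104 to 0.589) and 0.611 (0.332 to 1.10). PDK4 had 0, 2 and 0 counts. The mitochondrial pyruvate carrier subunits MPC1 and MPC2 had ratios with EVI1+18 of 0.811 (0.735 to 0.895) and 0.826 (0.785 to 0.869). In the ketone body list 0 of 4 described genes passed 2-fold.

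SLC7A8, for the amino acid and thyroid hormone exchanger LAT2, was the other gene past 2-fold. It had 824, 2329 and 2007 counts, lowest with empty vector and, like SLC16A9, highest with EVI1-WT. Relative to empty vector its scaled count was higher by a factor of 2.79 with EVI1-WT (2.58 to 3.03) and of 2.12 with EVI1+18 (1.96 to 2.31), the latter just within 2-fold in TPM, and between the EVI1 libraries the ratio was 0.761 (0.716 to 0.808). Its related exchanger SLC7A5 had ratios to empty vector of 1.09 (1.05 to 1.12) and 1.30 (1.26 to 1.34), and their shared heavy chain SLC3A2 had 1.34 (1.28 to 1.41) and 1.38 (1.32 to 1.44).

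In the carnitine and creatine list, which bears on the cargo of MCT9, 0 of 14 described genes passed 2-fold in any of the 3 comparisons, and the medians were -0.11, -0.04 and 0.11. CROT, a carnitine acyltransferase of peroxisomes, had 78, 40 and 47 counts and a ratio with EVI1-WT of 0.507 (0.337 to 0.751), just inside 2-fold. The creatine carrier SLC6A8 had a ratio with EVI1+18 of 1.79 (1.69 to 1.89). Of the glucose entry list 0 of 5 described genes passed 2-fold, with the transporter SLC2A1 at 1.41 (1.35 to 1.48) and 1.45 (1.39 to 1.51) against empty vector. SLC2A3, another glucose transporter, lay on the other side of 1 with EVI1-WT, at 0.622 (0.589 to 0.657). With EVI1+18 its ratio was 0.979 (0.935 to 1.03), an interval that holds 1. SLC2A8, a transporter of the same family, had 106, 57 and 123 counts and a ratio of 0.532 with EVI1-WT (0.378 to 0.740). Hexokinase HK1 was at 1.04 (1.02 to 1.06) and 1.01 (0.997 to 1.03). Of the proton export list 0 of 6 and of the regulators 0 of 10 passed 2-fold. HIF1A had a ratio of 0.986 with EVI1-WT (0.895 to 1.09) and 0.794 with EVI1+18 (0.719 to 0.876). EPAS1, for another hypoxia-inducible alpha subunit, had 1.04 (0.842 to 1.28) and, above 1 where HIF1A was below it, 1.40 (1.15 to 1.69). MYC had 0.826 (0.798 to 0.854) and 0.921 (0.892 to 0.951). CA9, a carbonic anhydrase induced by hypoxia, had 0, 10 and 7 counts, too few for a call. With the floor of 3 counts in place of the 0, its ratios were 3.30 with EVI1-WT and 2.04 with EVI1+18, without an interval. The other carbonic anhydrases of the proton export list were not higher in the EVI1 libraries: CA12 had 3, 3 and 1 counts, CA2 had 8, 2 and 4, and CA4 had 0 in all 3.

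**Figure D4:**
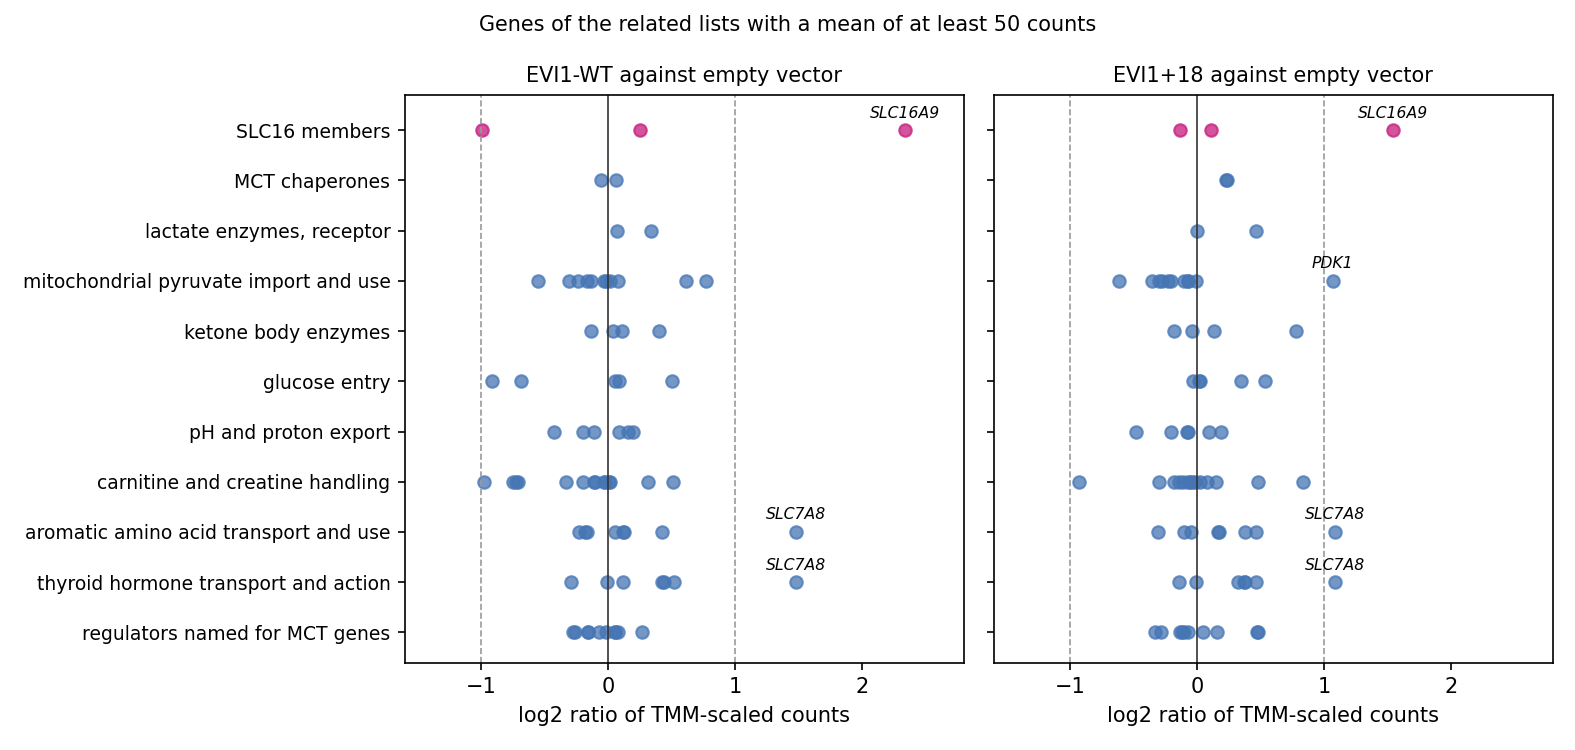
Log2 ratio of TMM-scaled counts to empty vector for the described SLC16 members (magenta) and the described genes of 10 related lists (blue; BSG is among the chaperones and SLC7A8 in 2 lists), with EVI1-WT on the left and EVI1+18 on the right; dashed lines mark 2-fold. SLC16A9 and SLC7A8 lie past 2-fold in both panels and PDK1 with EVI1+18 only, at 2.10-fold.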

How the data were processed

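RNA of 3 K562 libraries, 1 per construct, was analysed. The authors deposited 3 values per gene, an expected count, a TPM and an FPKM, per the file headers, over 26334 gene symbols with RefSeq transcript identifiers. TPM and FPKM as deposited are levels per effective length. Genome build hg19 and the tool bcl2fastq come from the submitters' processing notes. Aligner, counter and strand setting: not given in the sources used here.

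Expected counts were rounded and scaled with TMM factors (edgeR 4.0.16, R 4.3.3). The exact 95% interval of a ratio is Clopper-Pearson given the total of both counts (scipy 1.17.1, Python 3.11.15). Intervals and the floor of 3 counts, set in place of a 0, cover counting error only and no spread between cultures. Reads that carry no molecular identifier may repeat a molecule, and the intervals would then be too narrow even for counting error. A gene was described when its counts averaged 50 or more, and called higher or lower from 2-fold on, which is a rule of size and not a test; the calculation was tested on simulated data. Scaling and calls used the whole table. Alternatives were DESeq2 1.42.0 size factors, other scalings, units, filters and folds.

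The members and gene lists were chosen with earlier results of these data known. All 9 members are named. Of each related list the genes past 2-fold and some of the 4 most abundant by TPM are named; genes named outside that rule were chosen after their values were seen. For SLC16A9, the member past 2-fold, the 3 genes with the nearest pair of log2 ratios to empty vector are given. Symbols beginning with LOC, LINC, MIR or SNOR, ending with -AS1, or joined by a hyphen as read-through symbols are, were left out before this ranking. Promoter sequences are from RefSeq on GRCh38.p14, in which 5 of the 9 members matched, and overlaps between genes are from GENCODE on GRCh38; neither build is that of the tables, so neither was joined to them by position.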

Additional observations from a re-analysis of the deposited data

How the results depend on the processing

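Counts of members past 2-fold were within 1.5 times under DESeq2 size factors in all 3 comparisons, and no member past 2-fold changed direction under any alternative run. Unrounded counts could not move a member, because the expected counts of all 9 were whole numbers within 0.001. With EVI1-WT against empty vector the count of 1 became 2 with library totals, upper quartile factors, TPM or FPKM, where SLC16A13 joined as lower, 2 with a minimum mean of 10 counts, where SLC16A3 joined as higher, 2 at 1.5-fold and 3 with no filter. With EVI1+18 against empty vector it became 2 with a minimum mean of 10 counts and 3 with no filter, and between the EVI1 libraries the count of 0 became 1 (SLC16A5), 2 with no filter and 2 at 1.5-fold. SLC16A9 ranged from 3.52 to 5.06 with EVI1-WT and from 2.14 to 2.93 with EVI1+18 over the scalings and units, lowest with a pseudocount of 1 on TPM. That setting also took SLC16A3 to 1.61 and 1.98, and SLC16A5 between the EVI1 libraries to 1.32, each over 1.5 times below the ratio of counts. TPM moved the median log2 ratio of all described genes with EVI1+18 against empty vector to -0.10. Of 164 ratios of members under an alternative 154 stayed inside the counting interval. These include the ratios of unrounded counts, which could not leave it.

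For the related lists the alternatives were chosen after seeing the data. With EVI1-WT the count of 1 became 2 with library totals or TPM (CROT joined as lower), 3 of 71 with a minimum mean of 10 counts (5.79% of all genes) and 9 of 65 at 1.5-fold (6.32% of all genes), 6 of the 9 lower. With EVI1+18 the count of 2 became 4 of 71 (4.83%) and 6 of 65 (5.53%) under these last settings, and with TPM it held PDK1 and CROT but not SLC7A8. Between the EVI1 libraries the count of 0 became 3 of 71 (3.81%) and 6 of 65 (4.42%). The SLC16A1 share of the family moved by less than its counting error with FPKM or over the 8 member genes. No paired analysis was possible because each construct has 1 library, and no library could be left out. At 17794423 to 20772348 counts, depth limits SLC16A5, SLC16A6, SLC16A7 and SLC16A10 most.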
